A study of Mus musculus with 6 samples.

Results

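Gdf9 and Bmp15, the genes of the oocyte growth factors GDF9 and BMP15, were followed across mRNA libraries of mouse ovary. They are 2 of the 45679 genes measured and were found by their NCBI Gene IDs, 14566 and 12155. All animals were wild-type BDF1 mice, which are hybrids of laboratory strains. The labels give 2 libraries from mice aged 65 weeks and given MIT-001, 2 from mice aged 65 weeks and given PBS, and 2 from mice aged 8 weeks and given PBS. MIT-001 is a scavenger of reactive oxygen species that acts in mitochondria, given here into the abdomen at 0.5 mg/kg, and treatment lasted 7 days. The study used 40 old and 20 young mice, but the labels do not say which or how many animals gave each library, so p-values measure only the spread between these libraries.

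GDF9 and BMP15 are ligands of the transforming growth factor beta family that the oocyte secretes. They act on the granulosa and cumulus cells around it, where they drive follicle growth, support cumulus metabolism and hold back luteal differentiation. In mice, loss of GDF9 stops follicles at the primary stage, while loss of BMP15 alone has a mild effect on fertility. Both are made as precursors that proprotein convertases cleave. GDF9 signals through the receptors BMPR2 and TGFBR1 to SMAD2 and SMAD3, and BMP15 through BMPR2 and BMPR1B to SMAD1, SMAD5 and SMAD9.

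On mm10, Gdf9 spans chromosome 11, 53430774 to 53437904, on the plus strand, and Bmp15 spans chromosome X, 6314054 to 6320724, on the minus strand. The first 58 bases of the Gdf9 interval overlap the start of Uqcrq, a complex III subunit gene on the opposite strand, and the strand setting of the counting is not given in the sources used here. In GENCODE M21 the protein-coding transcript of Gdf9 has 2 exons and starts further in, at 53433299, so the shared bases lie outside it. Bmp15 has 1 transcript with 2 exons, and its nearest annotated neighbours are 72940 and 79224 bases away.

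The oocyte homeobox protein NOBOX is known to bind TAATTA and a close variant of it and to be needed for both genes in mice. FIGLA, another oocyte factor, binds E-boxes, spelled CANNTG. The 250 bases before the start of Bmp15 are shown because they hold such letters. They come from RefSeq on GRCm38.p6, at chrX:6320725-6320974 on the minus strand, and the promoter table matched 1 of the 2 genes. Capitals mark the TAATTA and the E-box match, which do not overlap.
Bmp15 promoter: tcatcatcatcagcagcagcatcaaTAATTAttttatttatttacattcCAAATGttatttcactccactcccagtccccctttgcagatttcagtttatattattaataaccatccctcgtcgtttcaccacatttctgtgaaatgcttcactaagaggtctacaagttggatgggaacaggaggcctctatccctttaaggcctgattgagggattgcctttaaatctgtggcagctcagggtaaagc
TAATTA stands 225 to 220 bases before the start, and 4.84% of 32851 RefSeq promoters of the same length hold it on either strand. The E-box match stands 201 to 196 bases before the start, and CANNTG is held by 66.2% of promoters. The letters TATAAA were matched on the opposite strand, 155 to 150 bases before the start, and 12.4% of promoters hold it. TAATTG, held by 7.17% of promoters, and AGGTCA, a nuclear receptor half-site held by 14.0%, were not among the letters of this window.

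The libraries were of similar depth, and markers of other cell types, oviduct among them, differed between them. Aligned sequence, estimated from coverage and FPKM, came to 6.34 to 7.14 gigabases a library. Summed TPM over summed FPKM was 1.892 in young-labelled PBS replicate 1 and 2.256 to 2.315 in the other libraries, so its TPM scale differed. Markers of oocytes, granulosa cells and theca or luteal cells were present in all 6 libraries, with Dazl alone of 17 oocyte markers listed at 0, in young-labelled PBS replicate 2. Ovaries lose oocytes with age, yet the 17 oocyte markers summed to 158 and 95.4 TPM in the libraries labelled old and given MIT-001, to 770 and 807 TPM in the old-labelled PBS libraries, and to 501 and 101 TPM in the young-labelled PBS libraries. The oocyte marker sums of the PBS libraries thus ran against their age labels. The cause was not tested, and groups are called old-labelled or young-labelled below. The MIT-001 libraries are old-labelled too. Of these markers Tle6 hardly differed between the young-labelled PBS libraries, at 57.6 and 54.4 TPM, and made up most of the sum in replicate 2. The 6 surface epithelium markers summed to 602 and 641 TPM in the MIT-001 libraries, to 157 and 155 TPM in the old-labelled PBS libraries, and to 244 and 345 TPM in the young-labelled PBS libraries. The 7 macrophage markers summed to 369 and 346 TPM in MIT-001, 133 and 155 in old-labelled PBS and 800 and 803 in young-labelled PBS libraries. The 11 granulosa markers summed to 2684 and 3938 TPM in MIT-001, 7395 and 9340 in old-labelled PBS and 3407 and 3135 in young-labelled PBS libraries. Inha made up most of that sum in every library, and Amhr2 and Nr5a2 overlapped between groups in every comparison. The 6 oviduct markers summed to 598 and 333 TPM in MIT-001, 23.5 and 32.6 in old-labelled PBS and 42.2 and 135 in young-labelled PBS libraries. Most of that sum was Ovgp1, at 567 and 215 TPM in MIT-001 libraries, while the cilia gene Foxj1 was at 0.867 and 67.0 TPM there. The 5 plasma cell markers summed to 977 and 116 TPM in MIT-001, 53.3 and 66.8 in old-labelled PBS and 1479 and 257 in young-labelled PBS libraries. Most of that sum was Igkc in the MIT-001 and young-labelled PBS libraries, and Derl3 in the old-labelled PBS libraries. Derl3 went the other way, at 18.2 and 13.3 TPM in MIT-001, 39.9 and 52.0 in old-labelled PBS and 39.7 and 11.1 in young-labelled PBS libraries. Mzb1 overlapped between groups in every comparison. The 4 theca or luteal markers summed to 14087 and 15095 TPM in MIT-001, 20190 and 18341 in old-labelled PBS and 11162 and 24750 in young-labelled PBS libraries. Most of that sum was Cyp11a1, which overlapped between the PBS groups, as Star did. Cyp17a1 was at 81.9 and 336 TPM in MIT-001, 490 and 673 in old-labelled PBS and 38.4 and 165 in young-labelled PBS libraries. Insl3 was at 5.87 and 7.82 TPM in MIT-001, 16.4 and 22.0 in old-labelled PBS and 1.78 and 3.18 in young-labelled PBS libraries. No marker of these lists other than Dazl was at 0 in any library, and their part in the results below was not tested.

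Gdf9 was at 22.8 and 9.35 TPM (a transcript level scaled for length and library) in the MIT-001 libraries, at 116 and 108 TPM in the old-labelled PBS libraries, and at 73.3 and 9.51 TPM in the young-labelled PBS libraries. Bmp15 was at 4.60 and 2.52 TPM in the MIT-001 libraries, at 26.5 and 25.8 TPM in the old-labelled PBS libraries, and at 14.6 and 1.19 TPM in the young-labelled PBS libraries. For both genes the old-labelled PBS libraries were highest and close together, while the young-labelled PBS libraries lay far apart and overlapped the MIT-001 libraries. The highest library exceeded the lowest by 12.4-fold for Gdf9 and by 22.3-fold for Bmp15. Within a group, the larger Gdf9 value exceeded the smaller by 2.44-fold in MIT-001, 1.07-fold in old-labelled PBS and 7.70-fold in young-labelled PBS libraries. For Bmp15 it did so by 1.83-fold in MIT-001, 1.03-fold in old-labelled PBS and 12.2-fold in young-labelled PBS libraries.

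**Figure D1:**
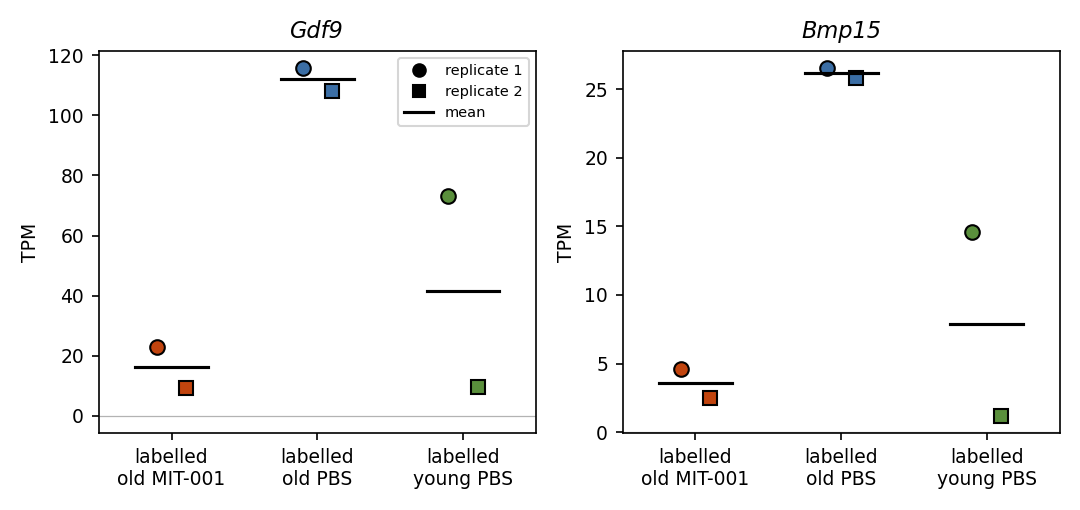
TPM of Gdf9 and Bmp15 in each library (circles, replicate 1; squares, replicate 2), with a bar at the mean of each group of 2 libraries as labelled. The old-labelled PBS libraries are highest for both genes, and young-labelled PBS replicate 2 lies near the MIT-001 libraries.

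The 2 genes stood in nearly the same order of libraries. For Gdf9 the order from high to low was old-labelled PBS replicates 1 and 2, young-labelled PBS replicate 1, MIT-001 replicate 1, young-labelled PBS replicate 2 and MIT-001 replicate 2. Bmp15 had the same order except that the last 2 libraries changed places. As group means, Gdf9 was at 16.1 ± 9.54 TPM in the MIT-001 libraries, 112 ± 5.33 TPM in the old-labelled PBS libraries and 41.4 ± 45.1 TPM in the young-labelled PBS libraries (SD, n = 2 each). Bmp15 was at 3.56 ± 1.47 TPM in MIT-001, 26.2 ± 0.496 TPM in old-labelled PBS and 7.87 ± 9.45 TPM in young-labelled PBS libraries. The mean of the young-labelled PBS libraries came second for both genes. It differed from the mean of the MIT-001 libraries by less than its own SD, and from the mean of the old-labelled PBS libraries by more. The mean read depth over the gene, which sets how well a level is known, was 19.8 to 249 for Gdf9 and 3.77 to 76.7 for Bmp15.

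Against the other transcripts of a library, Gdf9 was an abundant message and Bmp15 an intermediate one where oocyte genes were high. Gdf9 exceeded 57.1% and 34.7% of genes with at least 1 TPM in the MIT-001 libraries, and Bmp15 exceeded 22.2% and 12.6%. In the old-labelled PBS libraries the shares were 90.3% and 89.4% for Gdf9 and 60.0% and 57.6% for Bmp15. In the young-labelled PBS libraries they were 86.3% and 37.1% for Gdf9 and 50.0% and 2.54% for Bmp15. Among the 17 oocyte markers, 1 or 2 were more abundant per length than Gdf9 in every library, and 10 to 13 were more abundant than Bmp15.

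What MIT-001 does to old ovaries is the question of the first comparison, MIT-001 over old-labelled PBS. Both genes were lower in the MIT-001 libraries, with no overlap between the groups, and neither passed the test over all genes. Gdf9 had a log2 fold change of -2.84 ± 0.90 (SE; of TPM + 1, n = 2 each), with a 95% interval from -5.03 to -0.66 and an adjusted p of 0.305 by limma with Benjamini-Hochberg adjustment. Bmp15 had a log2 fold change of -2.61 ± 0.87, with an interval from -4.73 to -0.50 and an adjusted p of 0.321. The ratio of mean TPM, old-labelled PBS over MIT-001, was 6.95 for Gdf9 and 7.35 for Bmp15. In bulk tissue, fewer oocytes and less RNA per oocyte cannot be told apart. The part of the other cell types given above was not tested. Of the 16473 genes tested, 24.2% were lower without overlap, and 0.0182% passed at an adjusted p below 0.05.

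This call rested on which libraries set the spread. When only the 4 libraries compared were fitted, the fold changes were the same and both genes passed, Gdf9 at an adjusted p of 0.0466 and Bmp15 at 0.0369, with 371 genes (2.25% of those tested) passing in place of 3. Without young-labelled PBS replicate 1 the adjusted p was 0.0462 for Gdf9 and 0.0376 for Bmp15, with 358 genes passing, and without young-labelled PBS replicate 2 it was 0.0480 and 0.0379, with 372 genes. Without any 1 of the other 4 libraries neither gene passed (adjusted p 0.563 to 0.939) and no gene did.

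The second comparison, old-labelled over young-labelled PBS, asks what differs with age without treatment. It shares the old-labelled PBS libraries with the comparison above, so the opposite signs are not independent. Gdf9 had a log2 fold change of 2.01 ± 0.90, with an interval from -0.17 to 4.20 and an adjusted p of 0.304. Bmp15 had a log2 fold change of 2.22 ± 0.87, with an interval from 0.10 to 4.33 and an adjusted p of 0.266. Both genes were higher in the old-labelled PBS libraries without overlap, as were 38.1% of all genes tested, and 0.0364% of genes passed. All genes had a median log2 fold change of 0.23, and with libraries centred on their medians, where it was -0.09, Gdf9 stood at 1.69 and Bmp15 at 1.90. The size rested on single libraries labelled young PBS. Without replicate 1 the log2 fold changes were 3.43 and 3.63 and both passed, at an adjusted p of 0.0398 for Gdf9 and 0.0367 for Bmp15. In that fit 948 genes passed, or 5.75% of those tested, in place of 6. Without replicate 2 they were 0.60 and 0.80, with an adjusted p of 0.475 for Gdf9 and 0.237 for Bmp15.

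The third comparison, MIT-001 over young-labelled PBS, asks how treated old ovaries stand to young ones. The values of the groups overlapped for both genes. Gdf9 had a log2 fold change of -0.83 ± 0.90, with an interval from -3.01 to 1.35 and an adjusted p of 0.714. Bmp15 had a log2 fold change of -0.40 ± 0.87, with an interval from -2.51 to 1.72 and an adjusted p of 0.876. The intervals are wide, so these values do not show that the groups were alike. No gene of 16473 passed (0.00%), and 2954 had an unadjusted p below 0.05 by limma. The direction turned without young-labelled PBS replicate 1, with log2 fold changes of 0.58 for Gdf9 and 1.02 for Bmp15.

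Gdf9 was more abundant than Bmp15 in every library, and their ratio varied less than either level. The ratio of Gdf9 to Bmp15 TPM was 4.96 and 3.72 in the MIT-001 libraries, 4.36 and 4.19 in the old-labelled PBS libraries, and 5.03 and 7.98 in the young-labelled PBS libraries. Replicate 2 labelled young PBS stood apart, and there Bmp15 was at its lowest level. On the deposited coverage, the mean read depth per base, the ratios were 3.71 and 2.83 in MIT-001, 3.25 and 3.11 in old-labelled PBS and 3.75 and 6.05 in young-labelled PBS libraries. As a difference of log2(TPM + 1), Gdf9 exceeded Bmp15 by 1.82 ± 0.38 in the MIT-001 libraries, by 2.05 ± 0.04 in the old-labelled PBS libraries and by 2.26 ± 0.0045 in the young-labelled PBS libraries (SD, n = 2 each). The last SD is small only on this scale, where 1 is added to a Bmp15 level of 1.19 TPM, since the TPM ratios of those libraries were the furthest apart.

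The difference between groups in that log2 ratio was small beside the differences in level. It was -0.23 for MIT-001 over old-labelled PBS (exact two-sided permutation p = 1), -0.20 for old-labelled over young-labelled PBS (exact p = 0.33) and -0.43 for MIT-001 over young-labelled PBS (exact p = 0.33). With 2 libraries a group, 0.33 is the smallest p this test can give. The sizes depended on the scale and on the value added before the log. Within a library the Gdf9 to Bmp15 ratio is the same in TPM and FPKM, so values with FPKM differ only through the 1 added. Nothing was added to coverage. The first was 0.028 with coverage, -0.43 with FPKM and -0.022 with a pseudocount of 0.1. The second was -0.58 with coverage, 0.023 with FPKM and -0.52 with a pseudocount of 0.1. The third lay between -0.70 and -0.17 with 1 library left out.

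**Figure D2:**
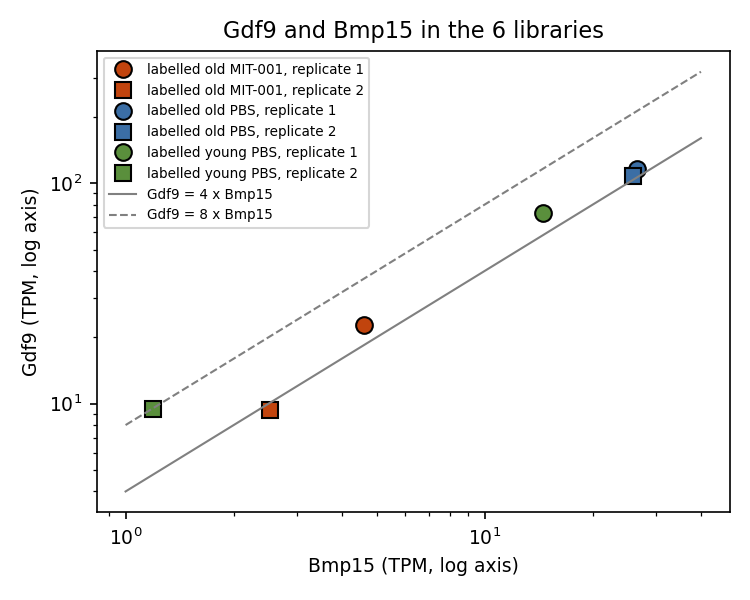
Gdf9 against Bmp15 in TPM on log axes, 1 point a library (colours, groups as labelled; circles, replicate 1; squares, replicate 2), with lines where Gdf9 is 4 or 8 times Bmp15. Points lie close to or between the lines, from 1.19 TPM of Bmp15 in young-labelled PBS replicate 2 to 26.5 TPM in old-labelled PBS replicate 1.

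Other oocyte genes had differences of similar size. The 17 oocyte markers, which include the zona pellucida genes and genes of the subcortical maternal complex, all passed the filter on low values. In the MIT-001 libraries against the old-labelled PBS libraries, 17 of 17 were lower without overlap (24.2% of all genes), with a median log2 fold change of -2.63 against 0.03 over all genes. None passed, but 13 passed when only the 4 libraries compared were fitted, as did 2.25% of all genes. In the old-labelled PBS libraries against the young-labelled PBS libraries, 17 of 17 were higher without overlap (38.1% of all genes), with a median of 1.93 against 0.23, and none passed. That median was 3.51 without young-labelled PBS replicate 1, where 14 passed beside 5.75% of all genes, and 0.62 without replicate 2, where none passed. For MIT-001 over young-labelled PBS the median was -0.66 against 0.24, with 16 of 17 lower (30.7% of all genes). That median was 0.75 without young-labelled PBS replicate 1 and -1.96 without replicate 2.

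Relative to the mean log2(TPM + 1) of those markers in the same library, both genes varied less than in level. That mean includes Tle6, Dazl and Ddx4, with log2 fold changes of -1.32, -1.32 and -1.39 for MIT-001 over old-labelled PBS. The median of all these markers was -2.63 there, and the mean was not recomputed without those genes. Gdf9 stood above that mean by 1.74 and 1.19 in the MIT-001 libraries, by 1.91 and 1.77 in the old-labelled PBS libraries, and by 1.89 and 1.52 in the young-labelled PBS libraries. Bmp15 stood at -0.35 and -0.36 in MIT-001, -0.18 and -0.26 in old-labelled PBS and -0.37 and -0.75 in young-labelled PBS libraries. For MIT-001 over old-labelled PBS the difference between groups was -0.37 for Gdf9 and -0.14 for Bmp15 (exact two-sided permutation p = 0.33 each), where the unscaled differences were -2.84 and -2.61. That Gdf9 value was -0.096 with a pseudocount of 0.1 and -0.097 without MIT-001 replicate 2. For old-labelled over young-labelled PBS it was 0.14 for Gdf9 (exact p = 0.67) and 0.34 for Bmp15 (exact p = 0.33), and for MIT-001 over young-labelled PBS it was -0.23 (exact p = 0.67) and 0.20 (exact p = 0.33). With 2 libraries a group this test cannot give a p below 0.33, so these p-values show neither a difference nor its absence. The Bmp15 value for MIT-001 over young-labelled PBS was 0.012 without young-labelled PBS replicate 2 and 0.39 without replicate 1, and for old-labelled over young-labelled PBS it was 0.15 and 0.53. With a pseudocount of 0.1 the Gdf9 value for old-labelled over young-labelled PBS turned to -0.18.

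**Figure D3:**
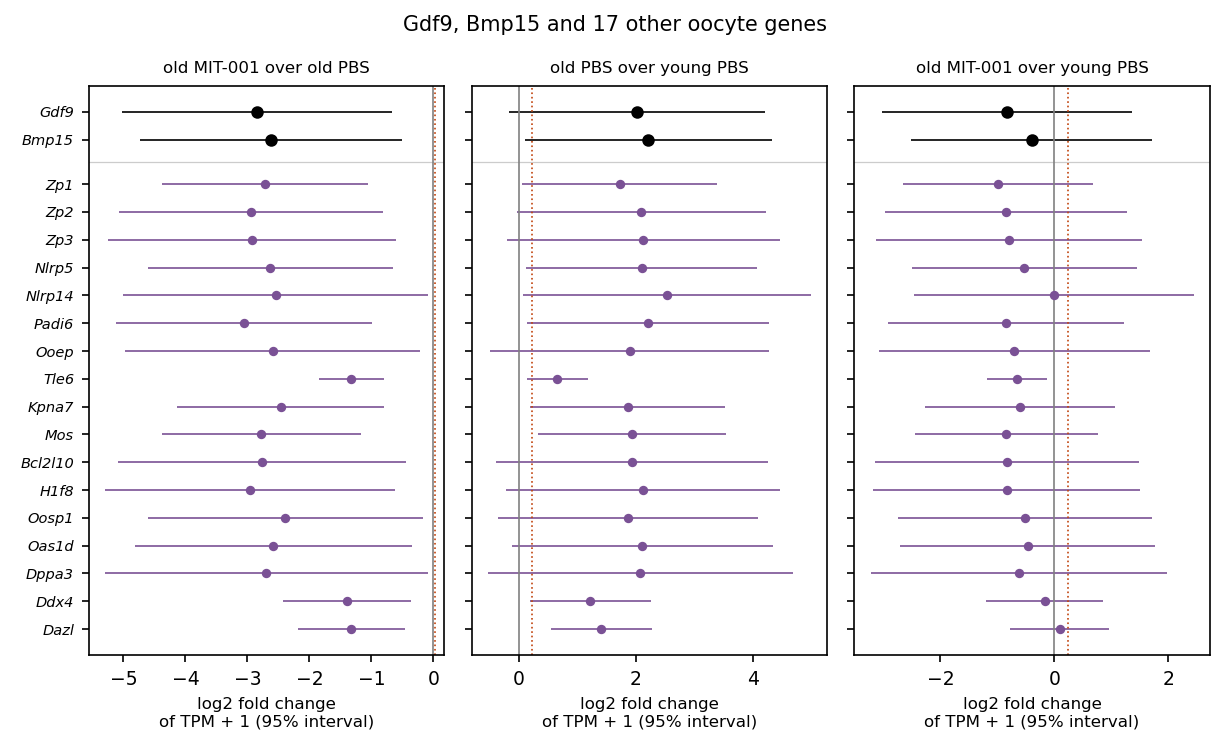
Log2 fold changes of TPM + 1 from limma, with 95% intervals, for Gdf9 and Bmp15 (black) and 17 other oocyte genes (purple) in the 3 comparisons of groups as labelled; the dotted line is the median of all genes tested. Gdf9 at -2.84 and Bmp15 at -2.61 lie among the other oocyte genes in the left panel, and Tle6 (-1.32), Dazl (-1.32) and Ddx4 (-1.39) lie nearest to 0 there.

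Among 14176 named genes ranked, those with the profile most like Gdf9 over the 6 libraries were Oas1e, Fbxw21, Zp2, Fbxw18 and Padi6. Likeness was the Euclidean distance between log2(TPM + 1) profiles, each centred on its own mean, and it was 0.26 for Oas1e to 0.40 for Padi6 against a median of 3.71 over all genes. Zp2, a zona pellucida protein gene, was at 16.4 and 8.56 TPM in the MIT-001 libraries, at 90.1 and 107 TPM in the old-labelled PBS libraries, and at 61.2 and 7.69 TPM in the young-labelled PBS libraries. For Bmp15 the nearest were Oas1d, Fbxw18, Khdc3, Eif4e1b and Npm2, at distances of 0.22 to 0.30 against a median of 3.53. Npm2, an oocyte nucleoplasmin gene, was at 7.82 and 4.80 TPM in MIT-001, 40.2 and 39.8 in old-labelled PBS and 29.2 and 2.58 in young-labelled PBS libraries. Bmp15 ranked 18th in likeness to Gdf9, and Gdf9 ranked 34th in likeness to Bmp15, at a distance of 0.58. The Oas1 and Fbxw genes named have close paralogs that can share reads, so their values are uncertain.

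Regulators of oocyte transcription were measured at lower levels than Gdf9. Nobox was at 3.46 and 1.42 TPM in the MIT-001 libraries, at 17.7 and 15.9 TPM in the old-labelled PBS libraries, and at 9.89 and 1.04 TPM in the young-labelled PBS libraries, the same order of libraries as Bmp15. Lhx8, a LIM homeobox gene of early oocytes, was at 0.542 and 0.274 TPM in MIT-001, 4.76 and 3.79 in old-labelled PBS and 2.89 and 0.124 in young-labelled PBS libraries. Of the 7 regulators 6 passed the filter on low values and Sohlh2 did not. In the MIT-001 libraries against the old-labelled PBS libraries, 5 of 6 were lower (46.5% of all genes), with a median log2 fold change of -0.99. Nobox was at -2.44 ± 0.78 and Lhx8 at -1.91 ± 0.60. None of the 6 passed, and 2 passed when only the 4 libraries compared were fitted, beside 2.25% of all genes. In the old-labelled PBS libraries against the young-labelled PBS libraries, 6 of 6 were higher (68.1% of all genes), with a median of 1.02. Taf4b was at 1.34 and Nobox at 1.92, and none of the 6 passed. Nr6a1, a nuclear receptor gene known to repress Gdf9 and Bmp15 in mice, was at 6.87 and 2.95 TPM in MIT-001, 5.46 and 3.48 in old-labelled PBS and 5.22 and 2.82 in young-labelled PBS libraries, with replicates further apart than the groups. For MIT-001 over young-labelled PBS the median of the 6 was -0.27, or 0.49 without young-labelled PBS replicate 1, and none passed.

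The receptors of GDF9 and BMP15, found on granulosa and other ovarian cells, followed another order of libraries than the ligands. Bmpr2, the type II receptor for both ligands, was at 46.6 and 46.9 TPM in the MIT-001 libraries, at 43.4 and 92.9 TPM in the old-labelled PBS libraries, and at 20.0 and 13.3 TPM in the young-labelled PBS libraries. Tgfbr1, the type I receptor for GDF9, was at 48.2 and 80.9 TPM in MIT-001, 86.5 and 113 in old-labelled PBS and 24.6 and 19.6 in young-labelled PBS libraries. Bmpr1b, the type I receptor for BMP15, was at 18.3 and 18.7 TPM in MIT-001, 29.1 and 45.1 in old-labelled PBS and 9.74 and 3.02 in young-labelled PBS libraries, and Bmpr1a, a related type I receptor, at 75.5 and 79.7 TPM in MIT-001, 47.0 and 64.7 in old-labelled PBS and 33.2 and 30.4 in young-labelled PBS libraries. All 4 were lowest in both libraries labelled young PBS, where the ligands differed most.

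No receptor passed the test in any comparison. In the old-labelled PBS libraries against the young-labelled PBS libraries, 4 of 4 were higher without overlap (38.1% of all genes), with a median log2 fold change of 2.01 and values of 2.50 ± 0.49 for Bmpr1b, 2.12 ± 0.31 for Tgfbr1, 1.90 ± 0.39 for Bmpr2 and 0.78 ± 0.22 for Bmpr1a. Without young-labelled PBS replicate 1, 2 of the 4 passed, as did 5.75% of all genes. In the MIT-001 libraries against the young-labelled PBS libraries, 4 of 4 were higher without overlap (37.3% of all genes), with a median of 1.46 and an adjusted p of 0.161 for 3 of them and 0.186 for Bmpr1b. For MIT-001 over old-labelled PBS the values were -0.93 ± 0.49 for Bmpr1b, -0.66 ± 0.31 for Tgfbr1, -0.44 ± 0.39 for Bmpr2 and 0.48 ± 0.22 for Bmpr1a. The median of the list was 1.69 for old-labelled over young-labelled PBS and 1.05 for MIT-001 over young-labelled PBS after median centring.

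The SMAD genes, which carry the signal to the nucleus, differed less. For MIT-001 over old-labelled PBS the 8 genes had a median log2 fold change of 0.36, with Smad6, an inhibitory SMAD gene, at 0.70 and Smad2 at 0.48. For old-labelled over young-labelled PBS the median was 0.43, with Smad4, the common partner, at 0.69 and Smad5 at 0.59. For MIT-001 over young-labelled PBS it was 0.63, with Smad5 at 0.96 and Smad6 at 0.94, beside 0.24 over all genes. After median centring these medians were 0.26, 0.11 and 0.21. No SMAD gene passed in any comparison, and 1 did in the old-labelled PBS libraries against the young-labelled PBS libraries without young-labelled PBS replicate 1, beside 5.75% of all genes.

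Among secreted antagonists of the family, Grem1 and Fst had large differences. Grem1, a BMP antagonist made by granulosa cells, was at 7.91 and 7.57 TPM in the MIT-001 libraries, at 28.8 and 53.1 TPM in the old-labelled PBS libraries, and at 2.93 and 2.61 TPM in the young-labelled PBS libraries. Its log2 fold change was -2.20 ± 0.35 for MIT-001 over old-labelled PBS (adjusted p 0.104) and 3.41 ± 0.35 for old-labelled over young-labelled PBS (adjusted p 0.0686), so it did not pass in either. Fst, the gene of follistatin, which binds activins and BMP15, was at 70.7 and 56.8 TPM in MIT-001, 223 and 251 in old-labelled PBS and 127 and 14.4 in young-labelled PBS libraries. Chrd, the gene of chordin, had a log2 fold change of 0.27 for MIT-001 over old-labelled PBS and -0.16 for old-labelled over young-labelled PBS. The median of these 3 genes was -1.88 for MIT-001 over old-labelled PBS, 2.42 for old-labelled over young-labelled PBS and 0.53 for MIT-001 over young-labelled PBS, with none passing. In the last comparison, 3 of 3 were higher (69.3% of all genes), or 2 of 3 with FPKM, centring or quantile normalization. Without young-labelled PBS replicate 1, 2 of the 3 passed as higher in the old-labelled PBS libraries against the young-labelled PBS libraries, beside 5.75% of all genes. Without replicate 2 that median was 0.89 and none passed. For MIT-001 over old-labelled PBS 2 passed as lower when only the 4 libraries compared were fitted, beside 2.25% of all genes.

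The proprotein convertase genes, whose products cleave such precursors, had small differences. Furin was at 91.6 and 106 TPM in the MIT-001 libraries, at 99.9 and 99.2 TPM in the old-labelled PBS libraries, and at 54.5 and 170 TPM in the young-labelled PBS libraries. Pcsk5 had a log2 fold change of -0.67 for MIT-001 over old-labelled PBS and 0.81 for old-labelled over young-labelled PBS, and Pcsk6 of 0.49 and 0.15. None of the 3 passed in any comparison, and the list medians of -0.01, 0.15 and 0.14 (the last for MIT-001 over young-labelled PBS) changed sign with the scaling of libraries.

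Genes known to respond to GDF9 or to oocyte factors in mouse granulosa and cumulus cells were split. Of the 6 genes that such factors raise, 5 passed the filter on low values. Has2, the hyaluronan synthase of the expanding cumulus, did not pass it and was below 0.4 TPM in every library. Ptgs2, the prostaglandin synthase, was at 2.76 and 3.25 TPM in the MIT-001 libraries, at 0.348 and 0.292 TPM in the old-labelled PBS libraries, and at 4.18 and 0.339 TPM in the young-labelled PBS libraries. Slc38a3, an amino acid transporter gene of cumulus cells, was at 43.9 and 14.2 TPM in MIT-001, 80.9 and 133 in old-labelled PBS and 74.0 and 14.9 in young-labelled PBS libraries, low in the same 2 libraries as Gdf9. The log2 fold changes of MIT-001 over old-labelled PBS were 1.61 for Tnfaip6, 1.60 for Ptgs2, -0.51 for Npr2 and -2.00 for Slc38a3. None of the 5 passed in any comparison, and their medians were 0.41 for MIT-001 over old-labelled PBS, 0.19 for old-labelled over young-labelled PBS, which changed sign with the scaling, and 0.60 for MIT-001 over young-labelled PBS. With quantile normalization the first and last were 0.12 and 0.10.

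Among the genes that GDF9 or oocyte factors hold back is Kitl, the gene of KIT ligand. Kitl was at 23.8 and 16.9 TPM in MIT-001, 3.44 and 7.89 in old-labelled PBS and 5.77 and 6.73 in young-labelled PBS libraries. Its log2 fold change was 1.75 ± 0.40 for MIT-001 over old-labelled PBS (adjusted p 0.200) and 1.54 ± 0.40 for MIT-001 over young-labelled PBS (adjusted p 0.161). Lhcgr, the luteinizing hormone receptor gene, was at 214 and 160 TPM in MIT-001, 357 and 553 in old-labelled PBS and 214 and 137 in young-labelled PBS libraries, with a log2 fold change of -1.26 ± 0.34 for MIT-001 over old-labelled PBS and 1.37 ± 0.34 for old-labelled over young-labelled PBS. Plau, the urokinase gene, had a log2 fold change of 0.16 and -0.16 in those comparisons. The medians of the 3 genes were 0.16 for MIT-001 over old-labelled PBS, -0.16 for old-labelled over young-labelled PBS and 0.11 for MIT-001 over young-labelled PBS, the last changing sign with the scaling, and none passed.

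Genes of glycolysis and cholesterol synthesis, which mouse oocytes are known to support in cumulus cells, were lower in the MIT-001 libraries against the old-labelled PBS libraries. All 6 glycolysis genes were lower without overlap (24.2% of all genes), with a median log2 fold change of -0.41, and none passed. Pfkp, a phosphofructokinase gene, was at 18.1 and 35.2 TPM in the MIT-001 libraries, at 64.4 and 61.7 TPM in the old-labelled PBS libraries, and at 45.2 and 43.7 TPM in the young-labelled PBS libraries. The 6 glycolysis genes summed to 2949 and 3119 TPM in MIT-001, 4005 and 3820 in old-labelled PBS and 3329 and 5095 in young-labelled PBS libraries. That sum was thus highest in young-labelled PBS replicate 2, where Bmp15 was at its lowest level. All 7 cholesterol genes were lower (46.5% of all genes), 5 without overlap (24.2% of all genes), with a median of -0.69. None passed, although 1 did when only the 4 libraries compared were fitted, beside 2.25% of all genes. Sqle, the squalene epoxidase gene, was at 147 and 144 TPM in MIT-001, 343 and 356 in old-labelled PBS and 135 and 196 in young-labelled PBS libraries, with a log2 fold change of -1.26 ± 0.24. For old-labelled over young-labelled PBS the medians were 0.13 for glycolysis, which changed sign with the scaling, and 0.39 for cholesterol synthesis, which was 0.07 with median centring. For MIT-001 over young-labelled PBS they were -0.37 and -0.16, or -0.78 and -0.57 with median centring and -0.21 and 0.04 without young-labelled PBS replicate 2. No gene of either list passed in these comparisons.

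**Figure D4:**
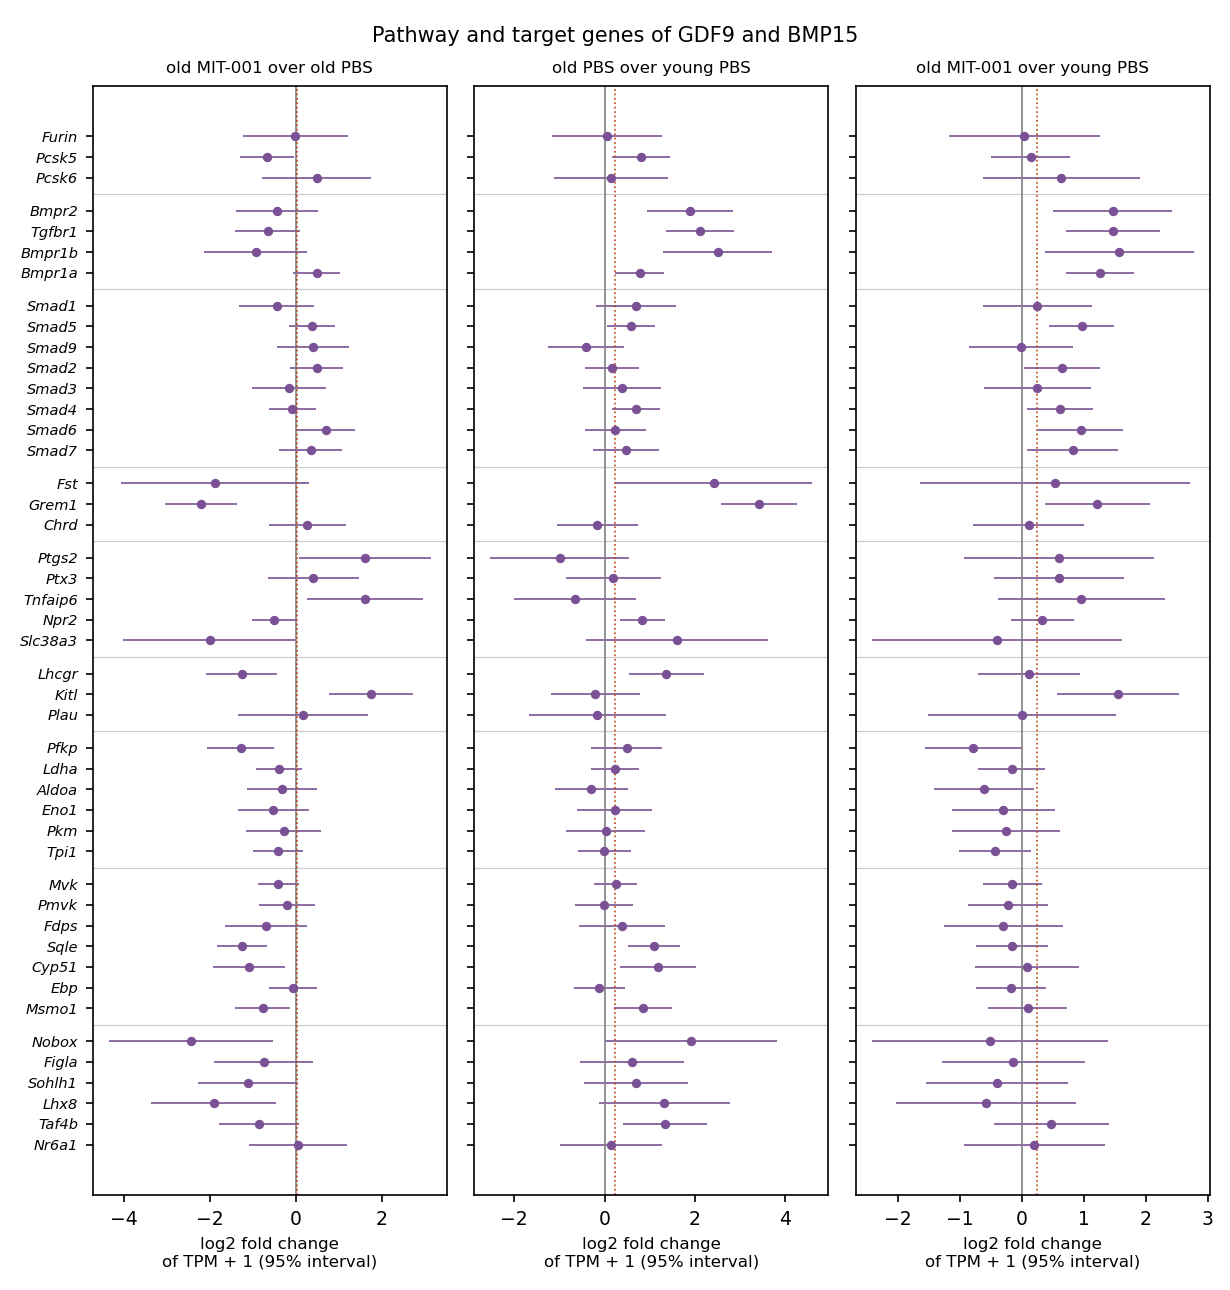
Log2 fold changes of TPM + 1 from limma, with 95% intervals, for genes of the GDF9 and BMP15 pathway in the 3 comparisons of groups as labelled; horizontal lines part the lists, in order convertases, receptors, SMAD genes, antagonists, genes raised and genes lowered by oocyte factors, glycolysis, cholesterol synthesis and oocyte transcription regulators, and the dotted line is the median of all genes tested. The 4 receptor genes lie between 0.78 and 2.50 in the middle panel.

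Uqcrq, whose start overlaps that of Gdf9, is given beside it. Uqcrq was at 191 and 199 TPM in the MIT-001 libraries, at 263 and 225 TPM in the old-labelled PBS libraries, and at 254 and 267 TPM in the young-labelled PBS libraries. It was lower in the MIT-001 than in the old-labelled PBS libraries without overlap, as were Gdf9 and 24.2% of all genes tested. Uqcrq was highest in young-labelled PBS replicate 2, where Gdf9 was at 9.51 TPM. Shroom4, the neighbour of Bmp15 on the X chromosome, was at 5.20 and 4.34 TPM in MIT-001, 4.63 and 4.73 in old-labelled PBS and 3.36 and 4.75 in young-labelled PBS libraries, which overlap.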

How the data were processed

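Ovary mRNA was sequenced in 6 libraries, 2 per group. Per the submitters' processing notes, Trimmomatic, HISAT2, StringTie and mm10 were used; their versions, the annotation and the strand setting are not stated in the labels. The deposited gene tables hold TPM, FPKM and coverage (mean read depth) per gene, per the file headers. Read counts were not used. Rows were matched to symbols by NCBI Gene ID, and the 98 rows left unmatched in each table held at most 0.0301% of TPM.

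TPM was tested as log2(TPM + 1) with limma 3.58.1 in R 4.3.3 (trended prior, all 6 libraries in one fit) over 16473 genes with at least 1 TPM in at least 2 libraries, a filter that both members passed. Benjamini-Hochberg adjustment ran over all 16473, and a gene passed below an adjusted p of 0.05. Fold changes on this scale understate the change of low genes. The log2 ratio of Gdf9 to Bmp15, and each gene relative to 17 oocyte markers, were compared by exact two-sided permutation over libraries. The fit was tested on simulated data with independent noise for each gene, so shifts shared by a whole library were not simulated.

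Genes of the pathway lists could be named, in lists of over 4 genes up to 4 by smallest p, with the 5 genes most like each member and the chromosomal neighbours; Pfkp, Sqle, Slc38a3, Lhx8, Has2 and Nr6a1 were given by level. The members and lists were chosen with earlier results of these data known. Alternatives were another pseudocount, other filters, FPKM, other scalings, fits with fewer libraries, no trend, and a replicate block. 1 antagonist gene first listed was left out of the list and is not reported here.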

Additional observations from a re-analysis of the deposited data

How the results depend on the processing

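With FPKM, other scalings, filters or pseudocount, Gdf9 and Bmp15 kept their direction in all 3 comparisons and did not pass. For MIT-001 over old-labelled PBS, 3 genes passed; 0 did without a filter, 1 with FPKM, 1 with median centring and 371 in a fit of just the 4 libraries of that comparison, where Gdf9 (-2.84) and Bmp15 (-2.61) passed. Leaving out 1 library gave 0 to 372 genes, -3.45 to -2.24 for Gdf9 and -2.95 to -2.28 for Bmp15. For old-labelled over young-labelled PBS, 6 genes passed; 1 did without a filter, 11 with FPKM, 15 with median centring, 17 with quantile normalization, 0 with only the 4 libraries and 1 without the trend. Leaving out 1 library gave 0 to 948 genes, 0.60 to 3.43 for Gdf9 and 0.80 to 3.63 for Bmp15. For MIT-001 over young-labelled PBS it gave -2.24 to 0.58 for Gdf9 and -1.81 to 1.02 for Bmp15. The log2 ratio of the 2 genes, MIT-001 over old-labelled PBS, was 0.028 with coverage, chosen after seeing the data, and -0.50 to 0.035 with 1 library left out; for old-labelled over young-labelled PBS it was 0.023 with FPKM. Relative to oocyte markers, Gdf9 in old-labelled over young-labelled PBS was -0.18 with a pseudocount of 0.1 and -0.048 to 0.32 with 1 library left out, and in MIT-001 over young-labelled PBS -0.51 to 0.041; in MIT-001 over old-labelled PBS it was -0.64 to -0.097. List medians under other scalings were computed after seeing the data. Those that changed sign for old-labelled over young-labelled PBS were glycolysis (-0.026 with FPKM, -0.20 with centring), convertases (-0.00073 with FPKM, -0.17 with centring, -0.058 with quantile normalization) and genes raised by oocyte factors (-0.13 with centring, -0.012 with quantile normalization). For MIT-001 over young-labelled PBS they were convertases (-0.0098 with FPKM, -0.27 with centring, -0.024 with quantile normalization) and genes held back (-0.041 with FPKM, -0.30 with centring), and for MIT-001 over old-labelled PBS convertases (0.034 with quantile normalization). The causes were not tested. With the replicate number as a block, 0, 1 and 0 genes passed in the 3 comparisons, and neither member did. Same-numbered libraries deviated together weakly, with correlations of 0.175, 0.00656 and 0.239, so the numbers were not taken as pairs. Bmp15 is the less certain gene, with a coverage of 3.77 in its lowest library.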
